A study of Mus musculus with 21 samples.

Results

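The cytosolic ribosomal protein genes are described here in the neonatal mouse heart. They were chosen by name: symbols that begin with Rpl or Rps and a digit, or with Rplp and a digit, without the S6 kinases (Rps6k) and without symbols holding "-ps". Of 89 matching names, 2 hold "-ps" (Rpl31-ps12 and Rpl34-ps1) and were left out. Of the 87 others, 83 reached 1 FPKM in at least 3 of the 21 libraries, where FPKM is the number of fragments per length of transcript and per mapped total. These 83 of 12433 tested genes comprise 51 named for the large and 32 for the small subunit. The other 4, Rpl39l, Rps27rt, Rpl32l and Rpl10l, had means of 0.251, 0.638, 0.0538 and 0.00714 FPKM and were not tested. Rpl10l and Rpl39l are testis-enriched copies of Rpl10 and Rpl39. The name rule also takes in Rps19bp1, which encodes a protein that binds RPS19, and Rpl7l1 and Rpl37rt, which are copies of Rpl7 and Rpl37.

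A ribosome has a large subunit, which joins amino acids, and a small subunit, which reads the mRNA. Each subunit holds ribosomal RNA and a set of proteins that are made in matched amounts, so their mRNAs are among the most abundant of growing cells. These mRNAs typically begin with a C followed by a run of pyrimidines, the terminal oligopyrimidine (TOP) motif, through which the kinase mTOR and the protein LARP1 control their translation. The neonatal heart grows quickly after birth as its muscle cells stop dividing and enlarge, and ribosome supply sets how much protein it can make.

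RNA came from the heart apex of ICR mice at postnatal day 7 after surgical removal of the apex at day 1, in 7 groups of 3 libraries. The label of the control group names only the resection, and its titles read NS. Whether the controls were injected is not stated. The other 6 groups had the same resection and subcutaneous injections on 7 consecutive days of isoproterenol (a β-adrenergic agonist), amiodarone (a channel blocker used against arrhythmia), metoprolol (a β1-selective blocker), propranolol (a non-selective β-blocker), lidocaine (a sodium channel blocker) or ivabradine (a blocker of the pacemaker current). All mice were of the wild-type outbred stock, the doses are not given in the sources used here, and the labels do not say that each library is a separate animal, so p-values measure only the spread between libraries. The summed FPKM of 9 cardiomyocyte markers ran from 44200 to 51800 over the libraries, with overlap of every drug group with the controls. Calls of the single markers are given with the other marker genes below. In bulk tissue, fewer cells of a type and less RNA per cell cannot be told apart. The deposited values are FPKM without read totals, so the depth is unknown.

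The members were abundant. Over the 21 libraries, 74 of 83 had a mean of at least 100 FPKM, and the median member had 478 FPKM (461 in the large and 531 in the small subunit). Per length of transcript, the highest means were those of Rpl41, the shortest ribosomal protein, at 1318 FPKM, Rplp1, of the stalk that recruits elongation factors, at 1197 FPKM, and Rps2, near the mRNA entry channel, at 1146 FPKM. Rps9 and Rpl28 followed at 820 and 811 FPKM. The lowest were Rps6 at 9.18 FPKM, Rps19bp1 at 17.0 FPKM, Rpl3l at 18.8 FPKM, Rpl7l1 at 26.2 FPKM and Rpl37rt at 26.5 FPKM. Rps6, whose protein is the classical substrate of the S6 kinases, encodes a core subunit protein, yet its listed level was far below that of its partners. In the mouse reference transcripts, 84.6% of the 50-base windows of Rps6 also occur in the transcripts of 14 other genes, so its level is uncertain where reads are split among copies. Rps27 and Rpl10 share more, 98.6 and 92.1% of windows, and were listed at 607 and 577 FPKM. Rps15a and Rps20 are listed at 36.0 and 70.6 FPKM with long annotated transcripts of 5179 and 3706 nt.

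The starts of some of these genes carry the pyrimidine run that marks their mRNAs. The windows printed here hold 10 bases before and 20 bases from the RefSeq start (GRCm38.p6, printed 5′ to 3′ on the gene's strand), with the pyrimidine run through the start in capitals. They show core proteins of each subunit, a stalk protein and Rps6, chosen among members that have such a run, and Rpl3l, the muscle copy of Rpl3, whose levels are described further on. Rpl35a has other listed starts with a shorter run or none, and the one with the longest run is shown.
Rpl15 (chr14:18270967-18270996, minus strand): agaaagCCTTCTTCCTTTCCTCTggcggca
Rpl35a (chr16:33056472-33056501, plus strand): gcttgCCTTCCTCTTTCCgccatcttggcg
Rpl28 (chr7:4792955-4792984, plus strand): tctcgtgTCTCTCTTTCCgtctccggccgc
Rplp2 (chr7:141447641-141447670, plus strand): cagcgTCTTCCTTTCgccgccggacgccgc
Rps18 (chr17:33955646-33955675, minus strand): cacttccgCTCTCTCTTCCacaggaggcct
Rps10 (chr17:27635225-27635254, minus strand): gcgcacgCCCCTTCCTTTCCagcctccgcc
Rps6 (chr4:86857348-86857377, minus strand): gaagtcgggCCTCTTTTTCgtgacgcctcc
Rpl3l, first start (chr17:24727816-24727845, plus strand): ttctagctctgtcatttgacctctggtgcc
Rpl3l, second start (chr17:24732675-24732704, plus strand): caacagctacagtgccccaaatgtcctgaa
The 2 listed Rpl3l starts have no pyrimidine at the first base and so no run through it. The listed starts of other members, such as Rplp0, Rpl4, Rps16 and Rps19, have none either.

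RefSeq promoters were found for 63 of the 83 members, 75 in all. A run of at least 8 pyrimidines that begins with C and lies within 10 bases of the start was present in 21 of the 75 (28.0%), against 5.96% of all 32851 mouse promoters and 6.31% of those of the other tested genes. A C at the first base followed by at least 4 pyrimidines was present in 13 of the 75 (17.3%), against 2.51% of all promoters. The sequence CCGGAAG, a core bound by ETS family factors, was found on either strand within the 300 bases in 25 of the 75 (33.3%), against 8.86% of all promoters and 16.9% of those of the other tested genes. These matches describe letters near annotated starts, which may differ from the starts used in the heart.

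In the deposited values, ribosomal protein mRNA was lower in every drug group than in the controls. Members made up 7.93, 8.49 and 8.28% of the summed FPKM of the 3 control libraries. Their share ran from 6.79 to 7.13% with isoproterenol, 7.06 to 7.61% with amiodarone, 7.12 to 7.36% with metoprolol, 7.23 to 7.84% with propranolol, 7.05 to 7.26% with lidocaine and 7.05 to 8.01% with ivabradine. All drug libraries were below all controls except ivabradine 1, at 8.01%. The mean log2(FPKM + 1) of the members was 8.67 ± 0.056 (SD, n = 3) in the controls, 8.37 ± 0.038 with isoproterenol, 8.42 ± 0.078 with amiodarone, 8.38 ± 0.058 with metoprolol, 8.48 ± 0.085 with propranolol, 8.35 ± 0.023 with lidocaine and 8.47 ± 0.16 with ivabradine (SD, n = 3 each). Ivabradine 1, at 8.65, lay within the range of the controls (8.62 to 8.73), and ivabradine 2 and 3 lay at 8.33 and 8.44.

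**Figure D1:**
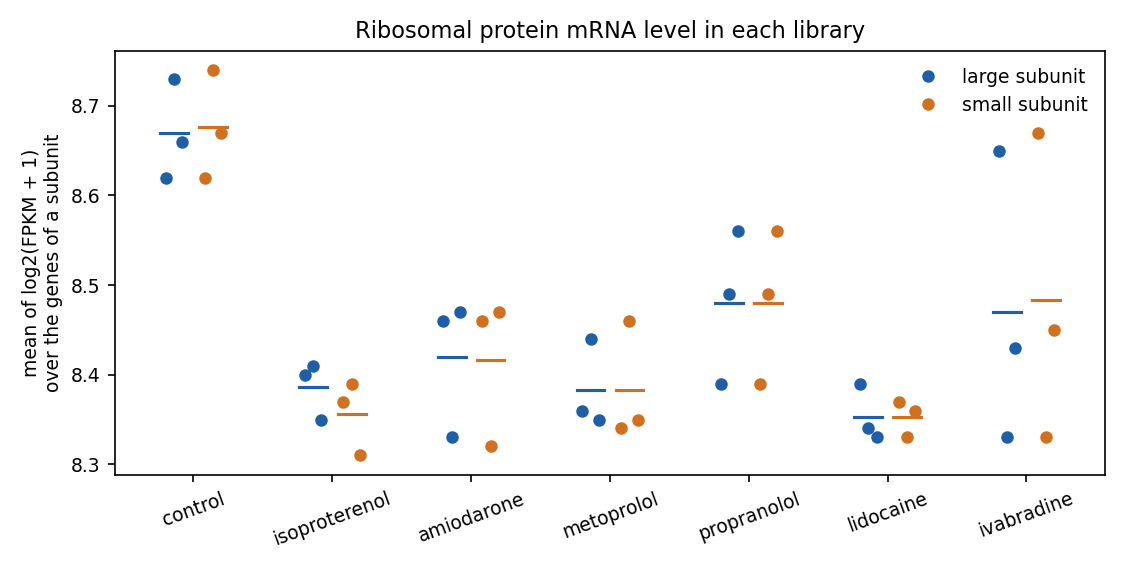
Mean of log2(FPKM + 1) over the 51 large and 32 small subunit genes in each of 21 libraries; points are libraries and lines group means. The means of both subunits lie close together in each library, the 3 controls are high, and ivabradine 1 stands with them.

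The means of large and small subunit genes lay close together in every library. In the controls the mean of the large subunit minus that of the small was -0.01 (log2) in each library. It was between 0.02 and 0.04 in the isoproterenol libraries and between -0.02 and 0.02 in all others. Across the 21 libraries, the log2 level of a member correlated with the mean of the other members at a median Pearson r of 0.93, a description only, since the libraries share the group differences and their scaling. The 4 lowest were Rpl3l at -0.006, Rpl37rt at 0.336, Rpl36 at 0.485 and Rps2 at 0.596, and the other 79 were at 0.636 or above.

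The moderated test called most members lower than control with 4 of the 6 drugs (limma, adjusted p below 0.05 over all 12433 tested genes). All 6 comparisons use the same 3 control libraries, so their agreement is not independent. With isoproterenol 75 of 83 members were lower (44 large and 31 small), against 25.8% of all tested genes, and 1 was higher, against 8.38%. The median difference was -0.32 (log2), against -0.09 over all tested genes. With lidocaine 77 were lower against 26.6% of all genes (median -0.33 against -0.10), and with metoprolol 69 against 22% (median -0.29 against -0.08). With amiodarone 59 were lower against 20.6% (median -0.27 against -0.08), with ivabradine 39 against 19.1% (median -0.20 against -0.08; 28 of 51 large and 11 of 32 small subunit genes, a difference that was not tested), and with propranolol 36 against 19.8% (median -0.20 against -0.08). A median of -0.32 is a level lower by 19.8% and one of -0.20 with propranolol by 12.9%. None was called higher with the 5 anti-arrhythmic drugs. The calls rested in part on single libraries: with ivabradine the count was 10 without ivabradine 2 and 68 without ivabradine 1, with amiodarone 24 without amiodarone 2, and with propranolol 8 without propranolol 1. A further fit left out 4 libraries chosen for markers of other tissues (control 3, isoproterenol 3, amiodarone 2 and propranolol 1). The counts were then 50 with isoproterenol, 67 with lidocaine, 59 with metoprolol, 8 with amiodarone, 26 with ivabradine and 4 with propranolol. The shares of all genes called in these runs without libraries are not given here, so their counts stand without a background.

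The number of calls depended on how the libraries were scaled. Rescaling by the median of ratios, whose factors were 1.05 to 1.08 in the controls and 0.965 to 1.02 in the drug libraries, left the median of the members below control with every drug, from -0.09 to -0.22. It moved the median of all genes from between -0.08 and -0.10 to between -0.01 and 0.01 (log2). The members called lower were then 32 with isoproterenol (12% of all genes), 37 with lidocaine (12.8%), 31 with metoprolol (9.38%), 12 with amiodarone (8.31%), 5 with ivabradine (9.78%) and 2 with propranolol (8.9%). The counts with ivabradine and propranolol are shares of 6.02 and 2.41%, below those of all genes. Among all called genes, the share called higher rose under this scaling from 24.5 to 59.1% with isoproterenol, 29.2 to 64.3% with amiodarone, 30.2 to 63.3% with metoprolol, 26.1 to 62% with propranolol, 28.4 to 59.6% with lidocaine and 29.3 to 59.8% with ivabradine.

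Short transcripts as a whole were lower in the drug groups, and ribosomal protein mRNAs are short. Their median transcript length was 791 nt, against 2870 nt over all tested genes, with a similar GC content (51.6 against 50.8%). Among the 784 other tested genes under 1000 nt, the median difference was -0.20 with isoproterenol, -0.24 with amiodarone, -0.26 with metoprolol, -0.19 with propranolol, -0.26 with lidocaine and -0.16 with ivabradine. For the 3622 other genes over 4000 nt it ran from -0.03 to 0.02. The 59 members under 1000 nt had medians of -0.32, -0.27, -0.29, -0.20, -0.33 and -0.20 in the same order of drugs. The gap between members and other short genes was thus widest with isoproterenol and narrowest with propranolol, where the medians were -0.20 and -0.19.

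**Figure D2:**
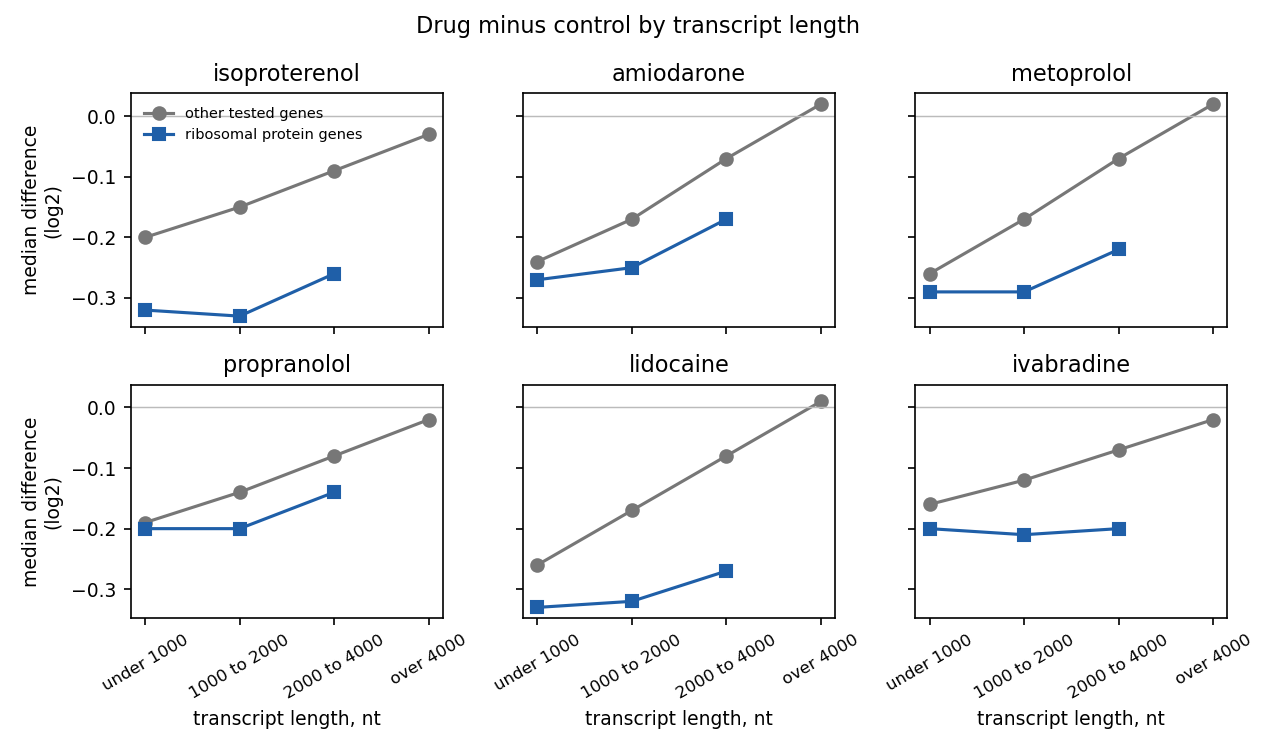
Median difference from control (log2(FPKM + 1)) in 4 classes of transcript length, for other tested genes (grey circles) and ribosomal protein genes (blue squares, shown where a class holds at least 4). The medians of other genes climb with length in all 6 drugs; those of the ribosomal protein genes lie below them in every class shown.

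After each library was corrected for transcript length and GC content, which also centres it on the mean of all genes, few calls were left. Members called lower were 15 with isoproterenol (12.8% of all genes), 13 with lidocaine (13.3%), 10 with ivabradine (10.8%), 9 with metoprolol (8.98%), 7 with amiodarone (8.93%) and 0 with propranolol (10.2%), all near or below the share of all genes other than the 15 with isoproterenol. The medians were -0.08, -0.06, -0.02, -0.05, -0.05 and 0.02 in the same order. With propranolol 8 members were called higher, Rplp1, Rps2, Rplp2, Rpl8, Rpl36, Rpl3, Rpl9 and Rps13, a smaller share than the 15.7% of all genes, and the median of 0.02 was close to that of all genes (0.01). The members called higher with other drugs were Rps2, Rpl36 and Rpl3l with isoproterenol, Rpl3 with amiodarone, Rplp1 with lidocaine and Rpl36 with ivabradine. Splines fitted without the members gave the same counts in either direction except 13 calls in place of 14 with lidocaine. Whether fragment length or RNA quality differed between the groups was not tested.

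**Figure D3:**
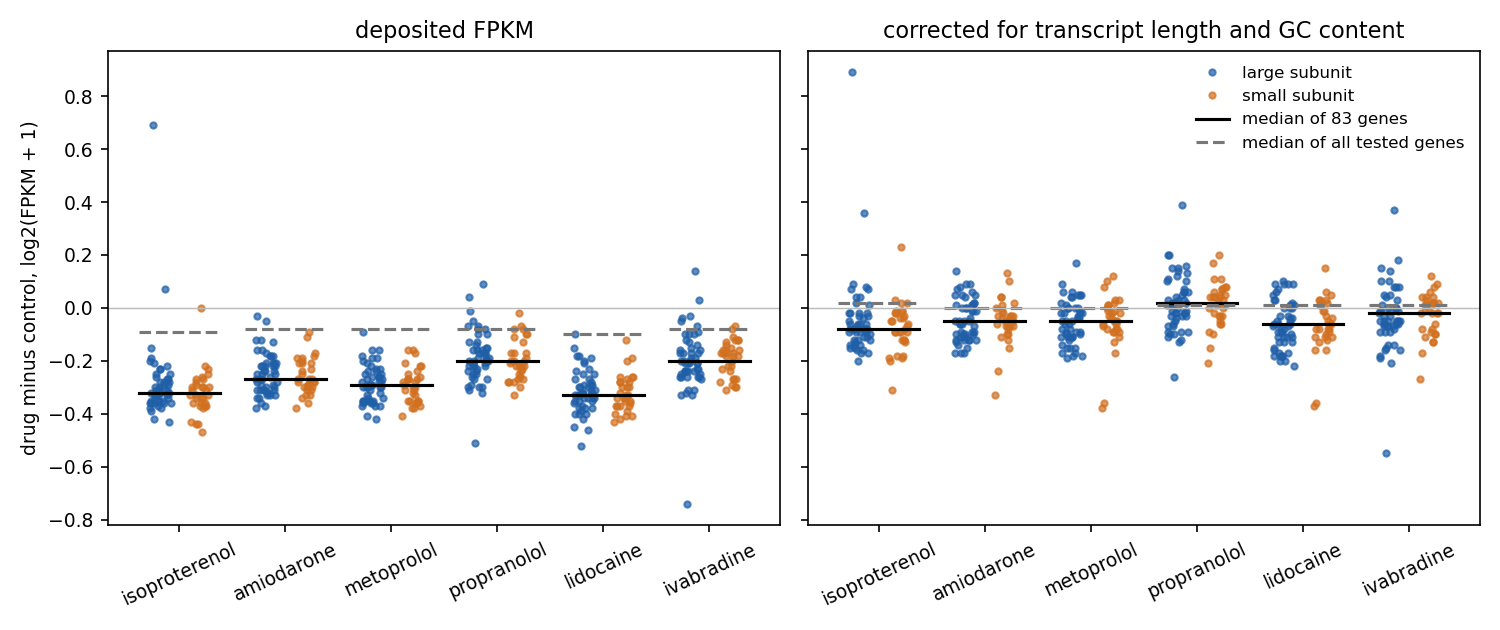
Difference from control of each of 83 ribosomal protein genes (points, log2(FPKM + 1), large subunit blue, small orange) for 6 drugs, in the deposited values (left) and after correction for length and GC content (right). Black lines are the medians of the 83 genes and dashed grey lines those of all tested genes; the gap between them narrows in the right panel, and Rpl3l with isoproterenol stays at the top.

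**Figure D4:**
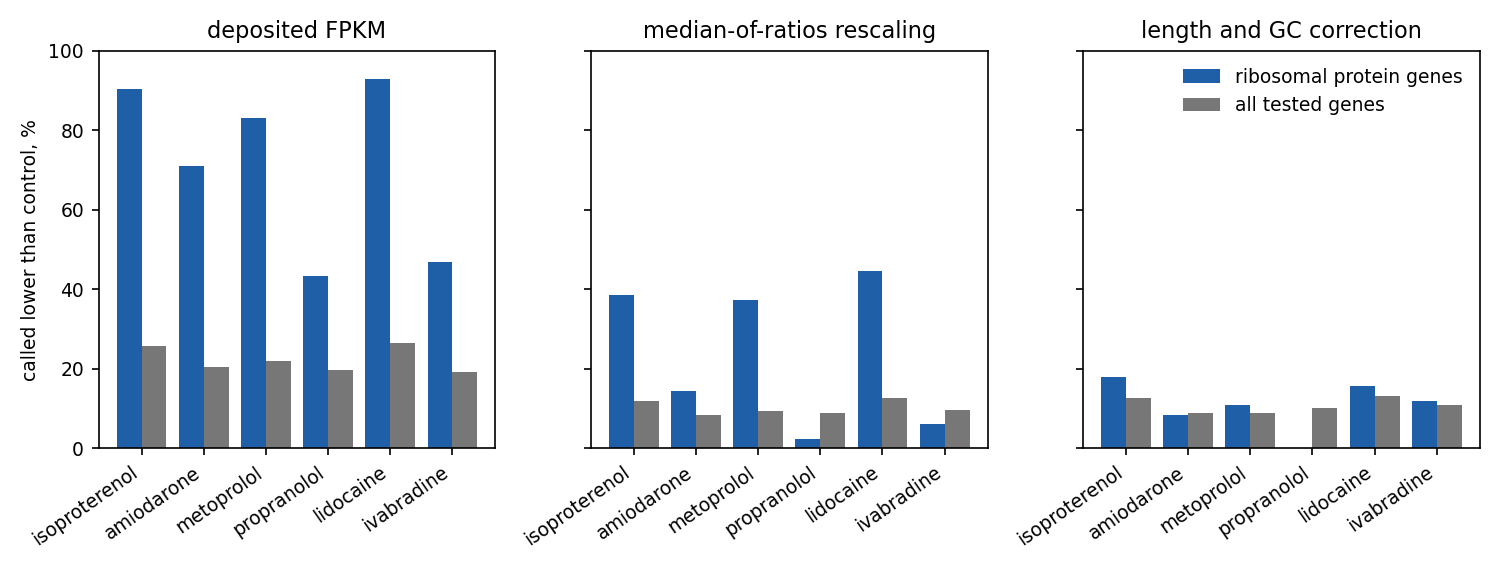
Percentage of the 83 ribosomal protein genes (blue) and of all 12433 tested genes (grey) called lower than control under 3 treatments of the values. The blue bars stand well above the grey ones in the deposited values and near them after the length and GC correction; no ribosomal protein gene is called lower with propranolol there.

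Among core proteins of the small subunit, Rps18, which sits at the head where it contacts the large subunit, had the most negative difference with isoproterenol. Its FPKM was 658, 750.0 and 650.2 in the controls and 509.7, 506 and 469 with isoproterenol. The groups did not overlap, and the log2 difference was -0.47 (SE 0.08, adjusted p = 0.00041). Rps18 was also lower with the other 5 drugs, at -0.29 to -0.41 (adjusted p from 0.001 to 0.013). After length and GC correction the call stayed with isoproterenol (-0.19, adjusted p = 0.0019) and amiodarone (-0.12, adjusted p = 0.044). Rps19, the most frequently mutated gene in Diamond-Blackfan anaemia, fell by 0.44 with isoproterenol (adjusted p = 0.0018).

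Rpl27a and Rpl26 fell in every drug comparison. Rpl27a had 352, 374 and 342 FPKM in the controls, and the 18 drug libraries ran from 258 to 312 FPKM, all lower. Its differences ran from -0.30 with propranolol to -0.40 with lidocaine (adjusted p from 0.00024 to 0.0039). It kept its call after the length and GC correction with isoproterenol (-0.17), amiodarone (-0.15), metoprolol (-0.18), lidocaine (-0.20) and ivabradine (-0.21), and missed it with propranolol (-0.13, adjusted p = 0.053). Rpl26, at the exit of the nascent peptide, had 570.3, 619 and 572 FPKM in the controls. With lidocaine it had 442, 412 and 424 FPKM, a difference of -0.46 (SE 0.07, adjusted p = 0.00018) with no overlap. Its corrected differences were called with lidocaine (-0.17), metoprolol (-0.17), ivabradine (-0.14) and amiodarone (-0.12), and were not called with isoproterenol (-0.08) or propranolol (-0.09).

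Rpl23a, where the signal recognition particle docks at the tunnel exit, had 909.6, 952 and 860.0 FPKM in the controls, and the 18 drug libraries ran from 678 to 801 FPKM. It was called lower with each drug in the deposited values, from -0.24 with propranolol to -0.37 with lidocaine. After the length and GC correction the call remained with ivabradine alone (-0.14, adjusted p = 0.013). Rpl35a, mutated in some families with Diamond-Blackfan anaemia, had 468, 475 and 470.1 FPKM in the controls against 344, 339.6 and 352 FPKM with lidocaine (-0.45, SE 0.07, adjusted p = 0.00019). Rpl15, whose start is printed above, fell by 0.36 with isoproterenol (adjusted p = 0.00033) and missed the threshold after correction (-0.15, adjusted p = 0.073). Rps20, with its long annotated transcript, fell by 0.43 with lidocaine (adjusted p = 0.00088) and by 0.37 after correction (adjusted p = 0.0065). The correction uses annotated lengths, and whether that of Rps20 holds in the heart was not tested.

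The stalk proteins, which bind the GTPase elongation factors, moved less than most members. Rplp0, the base of the stalk, had 877, 907 and 842 FPKM in the controls and 763, 784 and 736 FPKM with isoproterenol, a difference of -0.20 (adjusted p = 0.015). It was also called with metoprolol (-0.18, adjusted p = 0.035). Rplp1 fell by 0.28 with isoproterenol (adjusted p = 0.017), by 0.28 with metoprolol (adjusted p = 0.018) and by 0.25 with lidocaine (adjusted p = 0.028). Rplp2 had 745, 909.5 and 889 FPKM in the controls, a spread as wide as its differences, and was called only with lidocaine (-0.24, adjusted p = 0.048). None of the 3 was called lower with any drug after median-of-ratios rescaling or the length and GC correction. With libraries scaled to an equal FPKM sum, Rplp0 and Rplp1 kept their calls with isoproterenol (adjusted p = 0.016 and 0.014) and Rplp1 with metoprolol (adjusted p = 0.036). The calls of Rplp0 with metoprolol and of Rplp1 and Rplp2 with lidocaine were lost there. After the correction Rplp1 and Rplp2 were called higher with propranolol (0.13 and 0.20), and Rplp1 with lidocaine (0.09, adjusted p = 0.045). The call of Rplp1 with lidocaine thus changed direction with the processing.

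Rpl5 and Rpl11 bind 5S rRNA and, when free of ribosomes, restrain Mdm2 and so stabilise p53. Rpl5 had 431, 445 and 423 FPKM in the controls and 374, 363 and 342 FPKM with isoproterenol (-0.27, adjusted p = 0.0041). Rpl11 had 574, 597 and 622 FPKM in the controls and 508, 499 and 433 FPKM with isoproterenol (-0.32, adjusted p = 0.0067). Both were also lower with lidocaine, Rpl5 at -0.19 and Rpl11 at -0.38. With amiodarone and metoprolol Rpl11 was called (-0.32 and -0.35) and Rpl5 was not (-0.13 and -0.16); the difference between the 2 genes was not tested. After correction neither was called with any drug.

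Rps6 had 10.1, 11.0 and 12.1 FPKM in the controls and 8.20, 7.13 and 8.46 FPKM with isoproterenol, with no overlap (-0.43, SE 0.10, adjusted p = 0.0039). It was also lower with lidocaine (-0.40) and metoprolol (-0.28). The corrected difference with isoproterenol was -0.20 (adjusted p = 0.11). Rpl10, which completes the peptidyl transferase centre late in assembly, fell with all 6 drugs, from -0.21 with amiodarone and ivabradine to -0.32 with isoproterenol, and with none after correction. Rpl38, which has been tied to the translation of Hox mRNAs, was called only with lidocaine (-0.33, adjusted p = 0.019), and not after median-of-ratios rescaling (-0.23, adjusted p = 0.12), equal-sum scaling (-0.23, adjusted p = 0.052) or the length and GC correction (0.01, adjusted p = 0.91).

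In the deposited values 30 members were called lower with all 6 drugs, and 3 with none: Rps2, Rpl36 and Rpl3l. The share of all tested genes called lower with all 6 drugs is not given here. In single comparisons it was 19.1 to 26.6%, and all 6 use the same controls. Rps2 had 1165, 1311 and 1129 FPKM in the controls and 1176, 1253 and 1178 FPKM with isoproterenol, and its difference there was 0.00 (95% interval -0.17 to 0.17). Rpl36 was the most variable of the abundant members within the controls, at 384, 502 and 605 FPKM, and its differences ran from -0.27 with lidocaine to 0.14 with ivabradine. After correction both were called higher with isoproterenol (0.23 and 0.36) and with propranolol (0.20 and 0.39), and Rpl36 with ivabradine (0.37). The deposited differences there were 0.00 and -0.02 for Rps2 with isoproterenol and propranolol, and 0.07, 0.09 and 0.14 for Rpl36 with isoproterenol, propranolol and ivabradine.

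In several paralog pairs both genes were lower with isoproterenol in the deposited values. Rpl22, which binds RNA and is dispensable for translation in many tissues, fell with all 6 drugs (-0.20 to -0.34), and its copy Rpl22l1 was called with isoproterenol (-0.32) and lidocaine (-0.33). Rps27 had 665, 756 and 709 FPKM in the controls and 594, 552 and 548 FPKM with isoproterenol (-0.33, adjusted p = 0.011). Its copy Rps27l, a p53 target, had 136, 145 and 144 FPKM in the controls and 99.6, 106 and 108 FPKM with isoproterenol (-0.44, adjusted p = 0.0019), with no overlap. Rpl36a fell by 0.36 and Rpl36al by 0.23 with isoproterenol (adjusted p = 0.00098 and 0.039). Rpl7 fell with every drug, from -0.25 to -0.39, and Rpl7l1 with isoproterenol (-0.23), lidocaine (-0.21) and metoprolol (-0.16). None of these 8 genes was called with isoproterenol after the length and GC correction: Rps27 was at -0.02, Rps27l at -0.09, Rpl36a at -0.05, Rpl36al at 0.04, Rpl22 at -0.12, Rpl22l1 at 0.07, Rpl7 at -0.09 and Rpl7l1 at -0.14. No difference between paralogs was tested other than that of Rpl3l and Rpl3.

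Rpl37rt, a retrotransposed copy of Rpl37, had the largest fall of all members, with ivabradine. It had 36.3, 30.9 and 33.9 FPKM in the controls and 25.5, 16.2 and 18.4 FPKM with ivabradine, with no overlap (-0.74, SE 0.18, adjusted p = 0.0051). The call stayed after rescaling (-0.66) and after correction (-0.55, adjusted p = 0.029). It was also called with lidocaine (-0.52, adjusted p = 0.028) and propranolol (-0.51, adjusted p = 0.038). Those 2 calls were lost under either rescaling and under correction, and each of the 6 ways of leaving out a propranolol or control library ended the propranolol call (adjusted p from 0.057 to 0.12). Reads of Rpl37rt and Rpl37 can be hard to tell apart, so its level is uncertain.

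Rpl3l went against the pattern with isoproterenol. It encodes the form of Rpl3 found in heart and skeletal muscle, which replaces Rpl3 in the ribosomes of mature muscle after birth. Rpl3l had 17.9, 25.1 and 15.6 FPKM in the controls (19.5 ± 4.9, SD, n = 3) and 24.8, 36.0 and 35.1 FPKM with isoproterenol (32.0 ± 6.2). The groups overlapped by 1 library each, control 2 and isoproterenol 1. The log2 difference was 0.69 (SE 0.16, 95% interval 0.35 to 1.04, adjusted p = 0.0039), or 1.62-fold. It was the only member called higher with isoproterenol in the deposited values, at 0.81 after rescaling (adjusted p = 0.002) and 0.89 after length and GC correction (adjusted p = 5e-04). Leaving out single libraries gave 0.55 to 0.88, all called. Without the 4 libraries named above it was 0.48 and missed the threshold (adjusted p = 0.11). With the 5 anti-arrhythmic drugs Rpl3l ran from -0.17 to -0.34 and was not called.

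**Figure D5:**
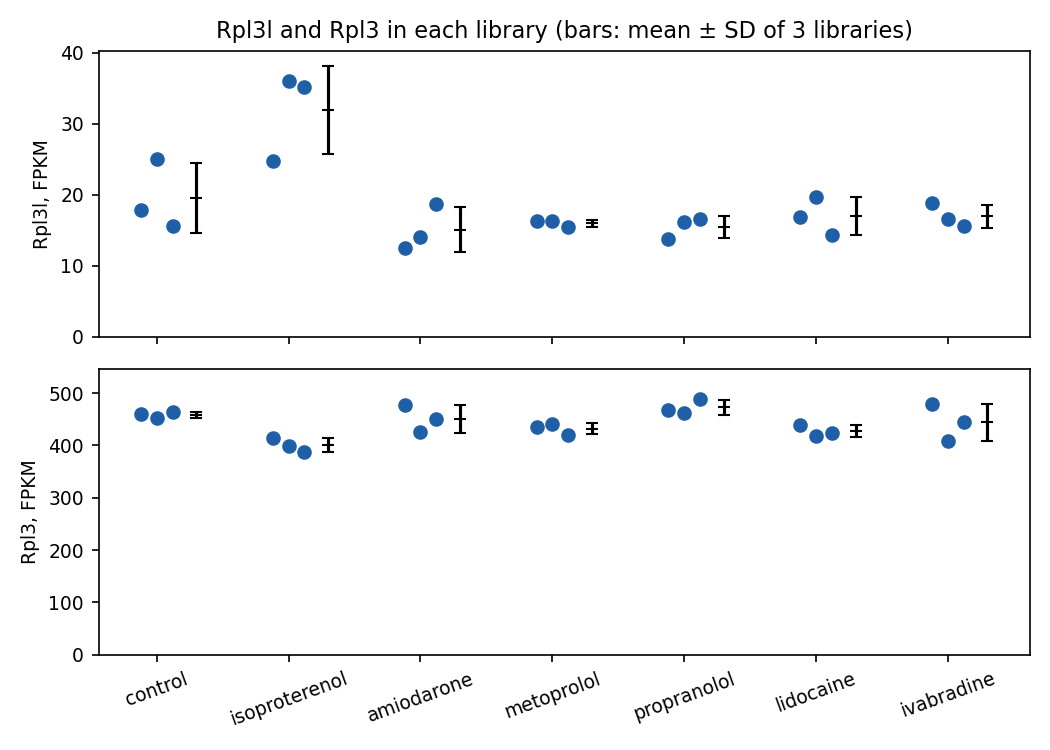
FPKM of Rpl3l (top) and Rpl3 (bottom) in each of 21 libraries, with the mean ± SD of each group of 3. Isoproterenol 2 and 3 lie above all others for Rpl3l and isoproterenol 1 lies just under control 2; all 3 isoproterenol libraries are below all controls for Rpl3.

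Rpl3 itself, which takes part in forming the peptidyl transferase centre, had 459, 453 and 463 FPKM in the controls and 415, 399.6 and 387 FPKM with isoproterenol, with no overlap. Its difference was -0.19 (SE 0.06, adjusted p = 0.012), -0.08 after rescaling (adjusted p = 0.38) and -0.02 after correction (adjusted p = 0.78). The log2 ratio of Rpl3l to Rpl3, which does not depend on the scaling of a library up to the pseudocount, was -4.61, -4.12 and -4.81 in the controls and -4.01, -3.44 and -3.43 with isoproterenol. All 3 isoproterenol libraries were above the other 18, of which the highest was -4.12. The ratio rose by 0.89 on average, with an exact two-sided permutation p of 0.1, the smallest that 3 against 3 allows (adjusted p = 0.6 over the 6 drugs). With the other drugs the ratio differed from control by -0.34 to -0.08 (exact permutation p from 0.3 to 0.9). Atrial Myl7 was 176 FPKM in isoproterenol 3 and 1.27 and 2.59 FPKM in the other 2. The summed skeletal muscle markers were lower with isoproterenol (7.25 to 8.93 FPKM) than in the controls (24.6 to 179 FPKM). They were also lower with lidocaine (4.9 to 9.99 FPKM), ivabradine (5.79 to 10.9 FPKM) and metoprolol (7.92 to 23.4 FPKM). Those with amiodarone (5.97 to 87.2 FPKM) and propranolol (6.38 to 32.9 FPKM) overlapped the controls. The part of other muscle RNA in the Rpl3l result was not tested.

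Isoproterenol was also set against the mean of the 5 anti-arrhythmic groups, a comparison that does not use the controls. Of the 83 members 6 were called, against 22.8% of all tested genes, with a median difference of -0.06 (log2). Rpl3l was higher by 0.94 (SE 0.13, 95% interval 0.67 to 1.21, adjusted p = 7.5e-05), or 1.92-fold, and the call held in each alternative run, at 0.84 without the 4 libraries (adjusted p = 0.0036). The other 5 were lower, Rps27l at -0.26 (adjusted p = 0.013), Rpl9 at -0.21 (adjusted p = 0.0058), Rpl3 at -0.15 (adjusted p = 0.018), and Rps4x and Rpl5 at -0.14 each (adjusted p = 0.047 and 0.046). Rps27l and Rpl9 kept their calls after rescaling, and the other 3 did not.

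No member passed the test between the 2 β-blockers. Metoprolol against propranolol gave 0 calls among 83 members in limma, with 13 at an unadjusted p below 0.05, against 0.0483% of all tested genes called. Members were lower with metoprolol in 80 of 83 cases, with a median of -0.10 against 0.01 over all tested genes. Other genes under 1000 nt had a median of -0.06. Members correlated with each other across libraries, so these 80 are not independent observations. The largest difference downwards was that of Rpl36 (-0.28, 95% interval -0.59 to 0.02), and Rpl37rt was highest (0.23, 95% interval -0.14 to 0.60). The median width of the 95% intervals was 0.32. Whether an interval held a difference of the size seen between drugs and control varied with the gene. That of Rpl13 (-0.37 to -0.06) held its difference between metoprolol and control (-0.35). That of Rpl27a (-0.20 to 0.07) did not reach its own (-0.36). Metoprolol is β1-selective and propranolol is not. Across the 5 anti-arrhythmic groups an F test called 0 members, with 6 at an unadjusted p below 0.05, against 1.06% of all genes, and 0 after rescaling. Across all 7 groups it called 69 of 83, against 39.9% of all genes, and 9 after rescaling. The share of all genes after rescaling is not given here for either F test.

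Rpsa, Fau and Rack1 encode ribosomal proteins but have names outside the rule. They are named because they passed the test. With isoproterenol Rpsa, a small subunit protein, fell by 0.36 (adjusted p = 0.0025), Rack1, a signalling scaffold on the small subunit, by 0.29 (adjusted p = 0.0021), and Fau by 0.27 (adjusted p = 0.035). With metoprolol they were also lower, at -0.27 for Rpsa, -0.25 for Rack1 and -0.34 for Fau. With amiodarone and lidocaine Rack1 (-0.21 and -0.25) and Fau (-0.29 and -0.34) were lower, with ivabradine Rack1 (-0.23), and with propranolol none of the 3 was called. Of 20 Diamond-Blackfan anaemia genes, nearly all members of the set, 20 were lower with isoproterenol (25.8% of all genes) and lidocaine (26.6%), 19 with metoprolol (22%), 15 with amiodarone (20.6%) and 10 each with propranolol (19.8%) and ivabradine (19.1%). After the length and GC correction, Rpsa (-0.23, adjusted p = 0.031) was the only one of these 3 called lower with isoproterenol. Of the 20, 1 was then lower, against 12.8% of all genes.

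Part of the translation factors whose mRNAs carry the TOP motif moved in the same direction. Of 18 translation factors with TOP mRNAs, 11 were lower with isoproterenol (25.8% of all genes; median -0.21 against -0.09), 10 with lidocaine (26.6%), 9 with metoprolol (22%), 7 each with amiodarone (20.6%) and ivabradine (19.1%) and 3 with propranolol (19.8%), the last a smaller share than that of all genes. Eef1g and Eef1b2, subunits of the elongation factor complex, fell by 0.31 each with isoproterenol (adjusted p = 0.0011 and 0.0012). Eef1a1 and Eef2, the elongation factors themselves, were at -0.12 and 0.13 (adjusted p = 0.22 and 0.1). After rescaling, 3 of the 18 were lower and 2 higher with isoproterenol, against 1486 lower and 2145 higher of all 12433 genes. After the length and GC correction 1 was lower, Eef1g (-0.18, adjusted p = 0.036), and 1 was higher, Eef2 (0.20, adjusted p = 0.009), with a median of -0.02. Of all 12433 genes 1589 were then lower and 2276 higher.

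Of 40 ribosome assembly factors 22 were lower with isoproterenol against control (25.8% of all genes; median -0.22), 14 with metoprolol (22%), 11 with amiodarone (20.6%), 9 with lidocaine (26.6%), 5 with ivabradine (19.1%) and 0 with propranolol (19.8%). The counts with lidocaine, ivabradine and propranolol are smaller shares than those of all genes. Against the mean of the 5 anti-arrhythmic groups, 20 of 40 were lower with isoproterenol and 0 higher, against 13.3% of all genes called lower, with a median of -0.17. After rescaling 18 were lower, against 1428 of all 12433 genes. Nop58, a core protein of the box C/D particles that methylate rRNA, had 14.5, 14.1 and 13.4 FPKM in the controls and 8.65, 8.76 and 7.03 FPKM with isoproterenol (-0.72, SE 0.08, adjusted p = 2.3e-05). Its difference from the anti-arrhythmic mean was -0.53 (adjusted p = 3.5e-05). Nolc1, a nucleolar phosphoprotein, was lower, at -0.37 against control and -0.33 against that mean (adjusted p = 0.0011 and 0.00045). After the length and GC correction, 7 of the 40 were lower with isoproterenol against control (12.8% of all genes). Against the anti-arrhythmic mean 15 were lower (1324 of all 12433 genes), with 0 higher in both comparisons. With propranolol 9 were then higher, against 15.7% of all genes, and 0 lower, against 10.2%. Nop58 and Nolc1 kept both calls with isoproterenol, Nop58 at -0.65 and -0.42 and Nolc1 at -0.33 and -0.32. All 10 markers of dividing cells were called lower in the same comparisons, with medians of -1.07 against control and -0.73 against the anti-arrhythmic mean, and their part in the assembly factor counts was not tested.

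Of 14 RNA polymerase I genes, which transcribe rRNA, 6 were lower and 0 higher with isoproterenol, against 25.8% of all genes called lower, among them Taf1d (-0.42, adjusted p = 0.0026). After median-of-ratios rescaling 2 were lower and 2 higher, against 1486 and 2145 of all 12433 genes. After the length and GC correction 1 was lower and 1 higher, against 1589 and 2276 of all genes. Of 18 growth signalling genes 5 were higher and 4 lower with isoproterenol, against 8.38 and 25.8% of all genes. The lower ones are not named here. Mtor, the kinase upstream of TOP mRNAs, was higher with isoproterenol (0.43), amiodarone (0.42), lidocaine (0.37), metoprolol (0.36) and propranolol (0.26), and was not called with ivabradine (0.21, adjusted p = 0.084). Sesn1, a stress-induced inhibitor of mTOR complex 1, rose by 0.40 with isoproterenol against control and by 0.45 against the anti-arrhythmic mean (adjusted p = 0.00089 and 5.8e-05). After the length and GC correction, Mtor was called higher with all 6 drugs (0.23 to 0.39), Sesn1 kept both calls (0.47 and 0.48), and Taf1d was not called (-0.08, adjusted p = 0.53). These list counts are descriptions, since the lists were chosen with earlier results known.

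Some marker genes of other cells also differed between drug groups and controls, and others did not. None of 5 tested erythroid and 2 tested lymphocyte markers was called higher with any drug, and of these 1 or more lower calls were also absent. Of 6 tested neutrophil markers, 3 were higher with amiodarone (1053 of all 12433 genes). With isoproterenol 4 were lower (25.8% of all genes), with propranolol 2 (19.8%) and with lidocaine 1 (26.6%). The summed FPKM of 10 markers of dividing cells was 179 to 213 in the controls, 63.8 to 92.2 with isoproterenol and 110 to 165 with the other drugs. That of 9 measured macrophage markers was 293 to 687 in the controls, 112 to 226 with isoproterenol and 166 to 470 with the other drugs. The macrophage sums with amiodarone, metoprolol, lidocaine and ivabradine overlapped those of the controls. None of the measured markers of dividing cells and macrophages was at 0 in all libraries of a group. Of the 9 cardiomyocyte markers, 2 or 3 were called higher with each drug (868 to 1312 of all 12433 genes). With lidocaine 1 was lower (26.6% of all genes). After the length and GC correction 4 to 7 were higher and 0 lower. Of all genes, 1628 to 2276 were then higher and 1110 to 1659 lower. The part of these markers in the ribosomal protein results was not tested.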

How the data were processed

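Total RNA from 21 heart apex libraries was sequenced on a BGISEQ-500, after oligo dT selection or rRNA depletion, per the labels' protocols. The authors deposited 1 table of FPKM values for 18762 genes. HISAT, Bowtie2 2.2.5 and the build mm9 are named per the submitters' processing notes; the counter and annotation are not given in the sources used here. All columns were mapped to a library, and 0 were left over.

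Values were analysed as log2(FPKM + 1), so differences of low genes are understated. The test covered the 12433 genes that reached 1 FPKM or more in 3 or more libraries, using limma 3.58.1 (R 4.3.3) with 1 mean per group over all 21 libraries (14 residual degrees of freedom), empirical Bayes moderation with a trend, and Benjamini-Hochberg adjustment within each comparison at 0.05. Each adjusted p comes from this fit unless an exact permutation test is named. The script was tested on simulated data. Transcript lengths and GC content (99.0% of tested genes, all 83 members) come from GRCm38 models, not mm9, and the correction subtracts natural splines with 4 degrees of freedom each; genes without a length were left as they were. Sequences are RefSeq's on GRCm38.p6.

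Named genes are, for each drug, the 5 called members of smallest p in each direction and the 3 largest differences, with the paralog pairs, the stalk, 5S particle and other proteins listed by role, the 5 most and least abundant members, and at most 3 called genes of each other list. Rpl9, Rpl36, Rps2, Eef1a1, Eef2, Mtor and genes in counts of 8 or fewer were named after their values were seen. Members and lists were chosen with earlier results of these data known; 1 gene of the lists is not reported here. Alternatives were another pseudocount (0.1), no filter, a filter at 5 FPKM, 2 rescalings, the compared groups alone, no trend, robust moderation, a replicate block, the length and GC correction, and leaving out libraries.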

Additional observations from a re-analysis of the deposited data

How the results depend on the processing

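Counts of called members that moved by over 1.5 times were as follows. Apart from the shares stated above, those of all tested genes are not given for the runs in this section. Median-of-ratios rescaling gave 33 with isoproterenol, 12 with amiodarone, 31 with metoprolol, 2 with propranolol, 37 with lidocaine, 5 with ivabradine, 3 for isoproterenol against the anti-arrhythmic mean and 9 in the F test of 7 groups; scaling to an equal FPKM sum gave 20 for isoproterenol against that mean. The length and GC correction gave 18, 8, 9, 14 and 11 with isoproterenol, amiodarone, metoprolol, lidocaine and ivabradine, 13 against the mean, 19 in the F test, and turned propranolol to 8 higher. With splines fitted without the members, an alternative chosen after seeing the data, these were 18, 8, 9, 13, 11, 12 and 19, and again 8 higher with propranolol. Without the 4 libraries the counts were 50 with isoproterenol, 8 with amiodarone, 4 with propranolol, 3 against the mean and 24 in the F test. A fit of the compared groups alone gave 3 with ivabradine. The cause was not tested in any of these.

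Leaving out 1 library at a time gave 62 to 77 calls with isoproterenol, 24 to 63 with amiodarone, 47 to 69 with metoprolol, 8 to 37 with propranolol, 59 to 77 with lidocaine, 10 to 68 with ivabradine, 3 to 10 for isoproterenol against the mean (3 without isoproterenol 1, 10 without ivabradine 2), 37 (without control 2) to 77 in the F test of 7 groups, and 0 for metoprolol against propranolol and in the F test of 5 groups. The log2 ratio of Rpl3l to Rpl3 differed from control by 0.74 to 1.08 with isoproterenol, -0.47 to -0.12 with amiodarone, -0.31 to 0.03 with metoprolol, -0.48 to -0.14 with propranolol, -0.22 to 0.12 with lidocaine and -0.27 to 0.07 with ivabradine; the 3 upper values above 0 arose without control 2. Of 42 values of single genes, 24 kept their call under the length and GC correction, 34 under median-of-ratios rescaling and 33 without the 4 libraries. None of the 42 changed sign in any alternative run, but most were chosen for a small p or a large difference. Other called genes in the text did change sign under the correction. Examples are Rpl38 and Rplp1 with lidocaine (-0.33 to 0.01 and -0.25 to 0.09) and Rpl22l1 with isoproterenol (-0.32 to 0.07).

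Pairing by the replicate number of the titles was checked. Residual correlations over 63 pairs of the same number ran from -0.54 to 0.29 (median -0.03, against 0.01 for different numbers). The main fit did not use the number. Whether libraries of the same number share a batch was not tested further. With the replicate block the counts were 75, 56, 66, 30, 76 and 36 for the 6 drugs in the order isoproterenol, amiodarone, metoprolol, propranolol, lidocaine, ivabradine, 4 against the mean and 62 in the F test.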
